A study of Mus musculus with 7 samples.

Results

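Collagens are the main structural proteins of the extracellular matrix, and 44 genes for their alpha chains were followed here in bulk RNA sequencing of endothelial cells from mouse skeletal muscle. They are the genes of the deposited tables whose symbol has the form Col, a number, the letter a and a number, 44 of 30899 genes in all. Bead-isolated muscle endothelial cells came from wild-type mice (3 libraries) and from mice labelled as endothelial GLUT1 knockouts (4 libraries), without further treatment, and RNA was taken directly after isolation. The sources used here give neither the promoter that drove the deletion nor the deleted exons, the age or sex of the mice, the strain, or whether the libraries are from separate animals. The p-values thus measure the spread between these libraries and no more. No treatment or allele shared by both groups is given, HO, a code that the knockout descriptions carry, is unexplained, and the labels name no batch.

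The series asks how loss of endothelial GLUT1, the glucose transporter encoded by Slc2a1, bears on metabolic balance in muscle. A fall of Slc2a1 under the knockout label was not detected, and which of its exons were deleted is not known here. Wild-type libraries 1 to 3 had 1032, 1083 and 1266 normalised counts of it, against 953, 1435, 824 and 1087 under the knockout label (libraries 1 to 4; log2 fold change -0.09, SE 0.18, adjusted p = 0.738 in limma). The group is therefore called knockout-labelled, and directions are those of the labels. Totals of normalised counts ran from 11855652 to 13441728 per library in wild type, against 14592369 to 15731074 under the knockout label, without overlap. Wild-type library 1 stood apart. It had 2794 genes listed at 0, against 5872 and 6551 in wild-type libraries 2 and 3 and 7301 to 9306 under the knockout label. This measure thus also separated the groups. Its mean log2 value of 1153 receptor genes of smell and pheromone sensing (olfactory and vomeronasal), which most tissues do not express, was 3.19, against 2.28 and 2.12 in wild-type libraries 2 and 3 and 1.36 to 1.73 under the knockout label. The endothelial identity of the libraries was plain in their markers. Pecam1 was at 25539 to 38715 normalised counts and the cadherin gene Cdh5 at 21691 to 40196 in the 7 libraries, and of 12 endothelial markers 2 rose (Erg and Emcn) and 1 fell (Egfl7). Among all genes tested 5.98% were called higher and 5.53% lower, and 16.0% higher among those with a mean of at least 1000 normalised counts. The marker counts are therefore a description. The summed level of these 12 genes was 136665 to 173635 in wild type, against 174266 to 194939.9 under the knockout label, without overlap, with a median log2 fold change of 0.26. Library totals were separated in the same direction, so this sum does not show that the markers rose as a set.

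Collagen chains assemble as trimers, and families differ in what those trimers build. Types I, III and V form the banded fibrils of interstitial connective tissue, which in muscle come largely from fibroblasts and fibroadipogenic progenitors. Type IV forms the sheet-like network of the basement membrane that endothelial cells and pericytes share around capillaries, and types XV and XVIII, which carry heparan or chondroitin sulphate chains, lie in or beside that membrane. Endothelial cells are known makers of type IV, XV and XVIII chains. The comparison below sets the basement membrane chains (the 6 type IV genes, Col15a1 and Col18a1) beside the fibrillar chains (Col1a1, Col1a2, Col3a1, Col5a1, Col5a2 and Col5a3), and then gives the other chains by family.

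Of 42 collagen chains with a mean of at least 10 normalised counts over the 7 libraries, 7 were higher in the knockout-labelled libraries and 0 were lower, at an adjusted p under 0.05 in limma over all 16931 genes tested. Higher calls made up 5.98% of all genes tested, calls in either direction 11.5% and lower calls 5.53%. Genes with a mean of at least 100 normalised counts were called higher in 9.57% of cases, 958 of 10006, and those with at least 1000 in 16.0%, 434 of 2714. In both bands the median log2 fold change was 0.16. The 7 chains were 4 fibrillar chains, Col3a1, Col1a1, Col5a1 and Col1a2, the fibril-associated chains Col14a1 and Col20a1, and Col28a1. None of the 8 basement membrane chains was called, though 2 of them had log2 fold changes near those of the fibrillar chains, Col4a2 (0.65, adjusted p = 0.0614) and Col4a1 (0.58, adjusted p = 0.075). At an unadjusted p under 0.05, 19 of the 42 chains passed, beside 5467 of the 16931 genes tested. The median log2 fold change was 0.46 over the 42 chains, 0.39 over the 8 basement membrane chains and 0.71 over the 6 fibrillar chains, beside 0.02 over all genes tested. In bulk samples a lower or higher value cannot tell fewer or more cells of a type from less or more RNA per cell. Without wild-type library 1, 0 chains were called, and 43 genes of all. In that fit 11 chains passed an unadjusted p under 0.05, beside 3339 of 16409 genes. Without knockout-labelled library 1 or 4, 3 chains were called in each case, beside 608 and 652 genes of all. Without knockout-labelled library 2, 11 chains and 1387 genes were called.

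**Figure D1:**
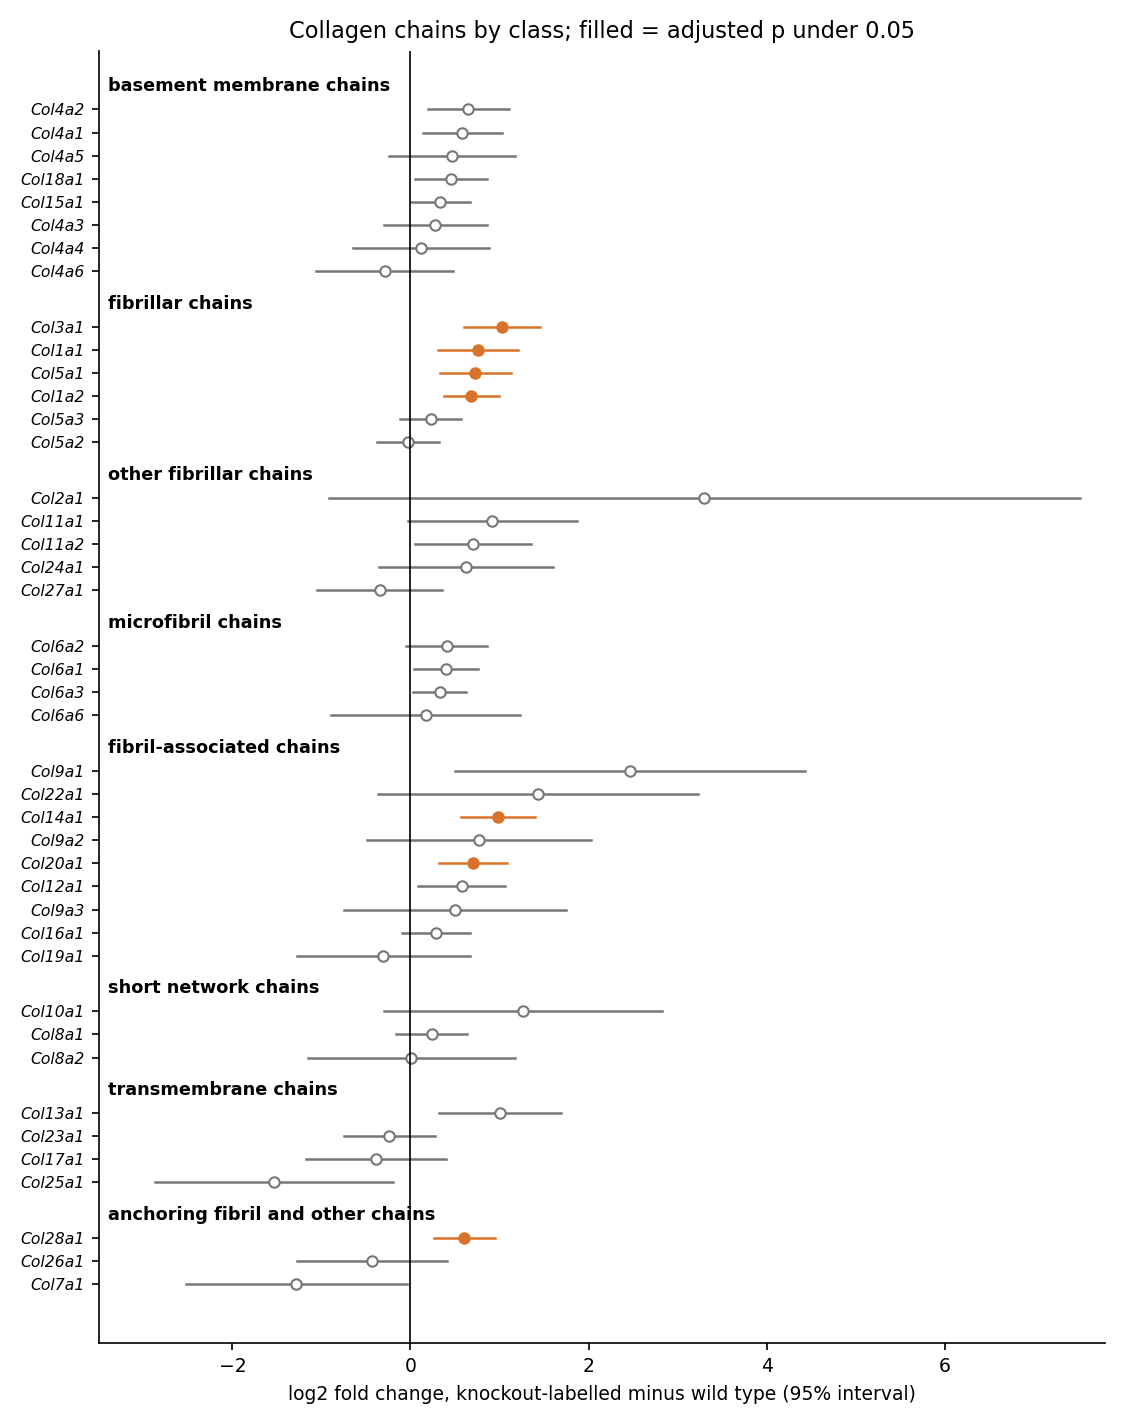
Log2 fold change (knockout-labelled minus wild type) of the 42 collagen chains tested, by family, with 95% intervals from limma on 3 and 4 libraries. Filled orange points are the 7 chains with an adjusted p under 0.05, all above 0, and open points are the 35 chains that did not pass.

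Promoter windows of 4 genes are shown for the chains that carry the comparison, the type IV pair, whose genes lie head to head, and Col1a2 and Col3a1 from the fibrillar group. The windows run from 250 bases before to 50 bases after the gene start and were taken from RefSeq, build GRCm38.p6. Of the 44 chains, 35 had a window in that set. Capitals mark matches, on either strand, to CCAAT, to the GC box GGGCGG or to the TATA-type motif TATAAA, none of which overlapped another.
Col4a1: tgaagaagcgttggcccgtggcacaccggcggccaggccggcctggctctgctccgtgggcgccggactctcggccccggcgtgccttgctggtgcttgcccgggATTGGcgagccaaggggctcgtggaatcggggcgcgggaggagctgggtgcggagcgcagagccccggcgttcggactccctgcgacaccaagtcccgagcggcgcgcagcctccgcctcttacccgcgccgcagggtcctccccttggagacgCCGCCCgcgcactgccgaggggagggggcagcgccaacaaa
Col4a2: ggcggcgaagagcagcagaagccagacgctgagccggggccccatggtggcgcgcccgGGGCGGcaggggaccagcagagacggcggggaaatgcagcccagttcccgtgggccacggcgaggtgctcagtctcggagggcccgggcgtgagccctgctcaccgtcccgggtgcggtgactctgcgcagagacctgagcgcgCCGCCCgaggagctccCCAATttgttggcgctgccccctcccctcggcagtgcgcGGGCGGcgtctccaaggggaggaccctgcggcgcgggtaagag
Col1a2: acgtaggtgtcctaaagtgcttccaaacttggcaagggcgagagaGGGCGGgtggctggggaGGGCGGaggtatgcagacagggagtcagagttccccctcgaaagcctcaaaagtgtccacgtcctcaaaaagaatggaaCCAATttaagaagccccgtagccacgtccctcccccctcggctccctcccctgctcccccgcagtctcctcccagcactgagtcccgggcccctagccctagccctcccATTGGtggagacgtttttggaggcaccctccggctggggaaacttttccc
Col3a1: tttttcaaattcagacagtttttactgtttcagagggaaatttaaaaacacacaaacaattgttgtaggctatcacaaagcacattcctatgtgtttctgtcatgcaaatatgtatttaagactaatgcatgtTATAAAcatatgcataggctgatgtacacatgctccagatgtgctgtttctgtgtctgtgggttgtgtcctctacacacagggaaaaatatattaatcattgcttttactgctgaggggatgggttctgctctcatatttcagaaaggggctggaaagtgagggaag
The Col4a1 window lies at chr8:11312777-11313076 on the minus strand and the Col4a2 window at chr8:11312555-11312854 on the plus strand. The annotated starts of the pair are 21 bases apart and the windows share 78 bases, in which a match counts for both. The genes overlap at their starts, so most of each window lies within the other gene, downstream of its start. Motif counts and GC content of either window thus partly describe the other gene. The Col4a1 window held 1 CCAAT and 1 GC box, and the Col4a2 window 1 CCAAT and 3 GC boxes. Col1a2, at chr6:4505368-4505667 on the plus strand, held 2 CCAAT and 2 GC box matches. The Col3a1 window, at chr1:45311288-45311587 on the plus strand, held 1 TATAAA and neither of the other motifs. Among all 32851 windows of that length, 37.4% held CCAAT, 35.7% the GC box and 13.6% TATAAA. GC content was 74.0% for Col4a1, 73.7% for Col4a2, 61.0% for Col1a2 and 37.7% for Col3a1, beside a median of 52.7% over all windows. The matches describe letters and say nothing on what binds there.

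The type IV chains Col4a1 and Col4a2, which together form the commonest type IV trimer of vessels, had the highest levels per kilobase of transcript of all chains in both groups, at 3789 ± 1174 and 2610.3 ± 835 normalised counts per kilobase in wild type (SD, n = 3). Col4a1 was at 19067, 33836 and 22286 normalised counts in wild-type libraries 1 to 3 and at 47967, 28124, 34178 and 38313 in knockout-labelled libraries 1 to 4. Col4a2 was at 12008, 22647 and 15853, then at 32333, 18338, 25497 and 28123. For both chains wild-type library 2 was the highest of its group and knockout-labelled library 2 the lowest of the other, so the groups overlapped. Group means were 25063 ± 7766 (SD, n = 3) and 37145 ± 8339.8 (SD, n = 4) for Col4a1, with a 95% interval of 0.14 to 1.02 for the log2 fold change. For Col4a2 they were 16836 ± 5387 and 26073 ± 5875, with an interval of 0.19 to 1.11. Each passed the threshold when either wild-type library 2 or knockout-labelled library 2 was left out, and in none of the other 5 such fits. Per kilobase of transcript, Col4a1 stood at 1.37 to 1.55 times Col4a2 in wild type and 1.31 to 1.5 times in the knockout-labelled libraries, so the pair varied together across libraries. Read per unit of Cdh5, an endothelial junction gene, Col4a1 was at 0.759 to 0.995 in wild type, against 0.866 to 1.19 under the knockout label, ranges that overlap.

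Col15a1 and Col18a1 came next in mean level per kilobase of transcript, at 958 ± 171 and 676 ± 176 in wild type. Both encode basement membrane zone collagens, and the end of the type XVIII chain is the source of endostatin, an inhibitor of angiogenesis. Col15a1 was at 3977, 5175 and 5706 normalised counts in wild type, then at 6383, 5583, 5346 and 7622 in the knockout-labelled libraries. Col18a1 was at 3296, 2369 and 4053, then at 3961, 5739, 3477 and 4458. Knockout-labelled libraries 2 and 3 were below wild-type library 3 for Col15a1, and libraries 1 and 3 were so for Col18a1. The log2 fold changes were 0.33 (SE 0.16, adjusted p = 0.154) and 0.45 (SE 0.19, adjusted p = 0.119). Neither passed, and their 95% intervals ran from 0.00 to 0.67 and from 0.05 to 0.86.

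The remaining type IV genes were rare in these cells. Col4a3, Col4a4 and Col4a5, which form the type IV trimer of the kidney glomerulus, and Col4a6, a chain of smooth muscle basement membranes, had group means of 56.1 to 265 normalised counts. Col4a5 was the highest of them, at 128, 294 and 153 in wild type against 149.6, 321, 209 and 381 in the knockout-labelled libraries. None of these 4 chains passed, with log2 fold changes of 0.47 (Col4a5), 0.28 (Col4a3), 0.12 (Col4a4) and -0.29 (Col4a6). Their standard errors, 0.27 to 0.36, were larger than those of Col4a1 and Col4a2.

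**Figure D2:**
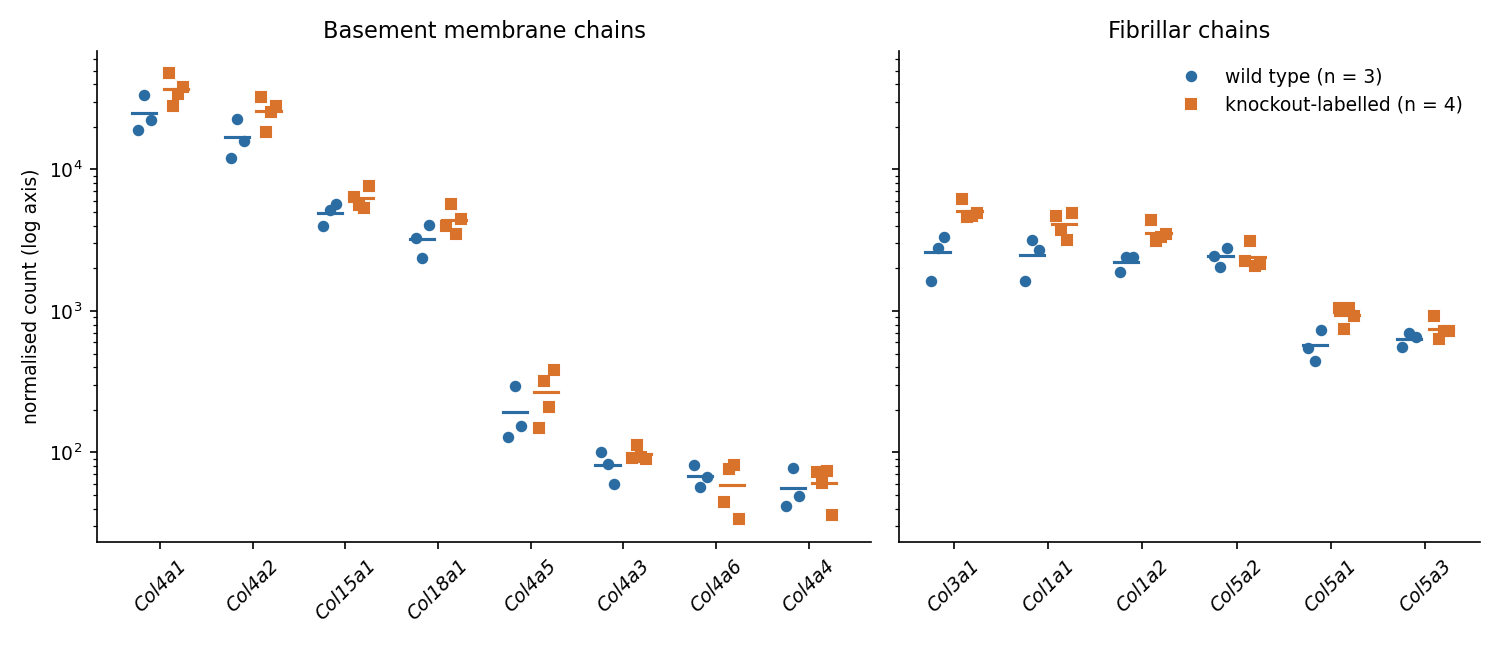
Normalised counts (log axis) of the 8 basement membrane and 6 fibrillar chains in each of 3 wild-type (blue circles) and 4 knockout-labelled libraries (orange squares), with group means as bars. The groups separate for Col3a1, Col1a1, Col1a2 and Col5a1 and overlap for the other 10 chains.

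Among the fibrillar chains, Col3a1, the single chain of type III collagen, showed the highest rise of the group, 1.96-fold between means. Wild-type libraries 1 to 3 had 1631, 2806 and 3335 normalised counts, and the knockout-labelled ones 6151, 4615, 4698 and 4887. All 4 knockout-labelled values were above all 3 wild-type values, and wild-type library 1 was the lowest of the 7. Group averages were 2590.4 ± 872 (SD, n = 3) and 5088 ± 718 (SD, n = 4), and the log2 change was 1.03 (SE 0.20, 95% interval 0.60 to 1.46, adjusted p = 0.0135). Without wild-type library 1 the change was 0.72 and did not pass.

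The type I pair rose as well. Col1a1, the chain present in duplicate in the type I trimer, was at 1631, 3164 and 2705 normalised counts in wild type, then at 4697, 3742, 3177 and 4948 in the knockout-labelled libraries. The groups were split by a narrow margin, since wild-type library 2 lay just under knockout-labelled library 3. Col1a2, its partner chain, was at 1885, 2393 and 2386, then at 4377, 3111, 3329 and 3489.6, with a wider gap. Log2 fold changes were 0.76 (SE 0.21, adjusted p = 0.0357) for Col1a1 and 0.68 (SE 0.14, adjusted p = 0.0174) for Col1a2. Per kilobase of transcript, the ratio of Col1a1 to Col1a2 ran from 0.78 to 1.19 in wild type and from 0.861 to 1.28 in the knockout-labelled libraries.

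Type V collagen, a minor fibril component that helps set fibril width, was split between its chains. Col5a1 was at 551, 442 and 733 normalised counts in wild type, then at 1041, 747, 1056 and 926 in the knockout-labelled libraries, a log2 change of 0.73 (SE 0.18, adjusted p = 0.028). Knockout-labelled library 2 was close to wild-type library 3, but the groups did not overlap. Col5a2, whose product pairs with that of Col5a1, was at 2460.4, 2032 and 2799.8, then at 2263, 3111, 2069 and 2133, and gave -0.03 (SE 0.16, 95% interval -0.37 to 0.31, adjusted p = 0.915). The values overlapped fully, and the interval leaves out a rise as large as the 0.73 of Col5a1. Knockout-labelled library 2 differed from its group in both chains, low in Col5a1 and high in Col5a2. Col5a3, the least common type V chain in most tissues, was at 554, 701 and 659 and at 921, 629.5, 722 and 726 (0.23, SE 0.16, adjusted p = 0.346). Differences between chains were not tested.

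Of the 42 chains tested, 7 had all knockout-labelled libraries above all wild-type ones. That count is near the share of all genes tested with such values, 14.7%, 2481 of 16931. These chains were the 4 fibrillar chains and the 3 other chains called. A call and a lack of overlap rest on the same values, so this count adds nothing to the calls. When the libraries were scaled to equal totals, the median over all genes moved from 0.02 to -0.20, and Col3a1 (0.80), Col14a1 (0.76) and Col1a2 (0.46) were the chains called. These 3 chains kept their call in 17 of 21 alternative settings. In the other 4 (limma without a mean-variance trend, the replicate number as a block, the receptor genes as a covariate, and the omission of wild-type library 1) no collagen chain was called. With the receptor genes' mean as a covariate, which itself separates the groups, Col3a1 was at 0.12, Col1a2 at 0.33, Col4a1 at 0.11, Col4a2 at 0.08 and Col1a1 at -0.17, while Col14a1 was at 0.90, Col20a1 at 0.98, Col5a1 at 0.67 and Col28a1 at 0.42. In that fit 0 genes of all were called and 749 had an unadjusted p under 0.05.

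**Figure D3:**
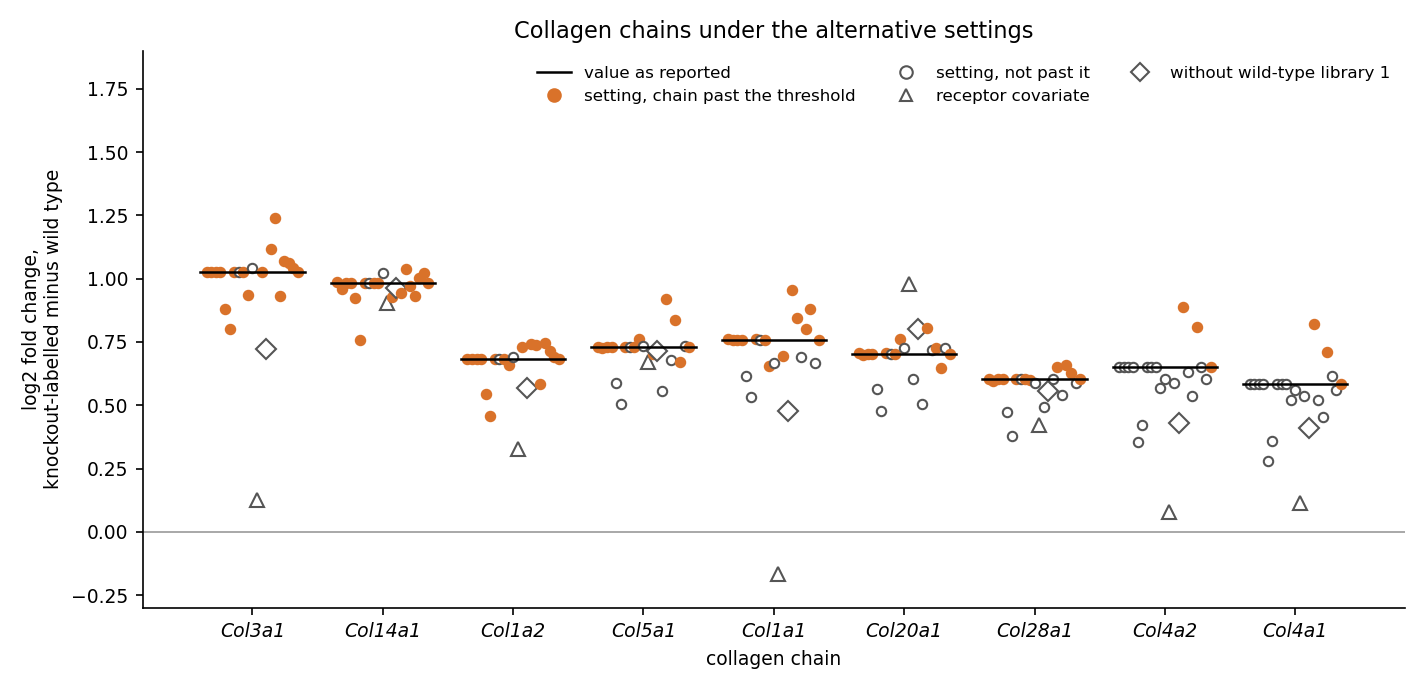
Log2 fold change (knockout-labelled minus wild type) of the 7 chains called and of Col4a2 and Col4a1 under 21 alternative settings, with the reported value as a black line. Orange points passed the threshold of that setting and open points did not. Triangles are the fit with the receptor covariate, where Col1a1 was at -0.17, and diamonds the fit without wild-type library 1, where Col3a1 was at 0.72.

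The balance between the families overlapped between the groups. Per kilobase of transcript, the basement membrane chains summed to 4.32, 5.20 and 3.69 times the fibrillar chains in wild-type libraries 1 to 3, against 4.31, 3.50, 4.28 and 4.33 times in knockout-labelled libraries 1 to 4. On average the ratio was 4.40 ± 0.759 (SD, n = 3) and 4.10 ± 0.406 (SD, n = 4), and the wild-type range enclosed all but the lowest of the other values. Basement membrane chains took 71.3% ± 3.88 and 70.7% ± 2.00 of the collagen counts per kilobase, and fibrillar chains 16.4% ± 1.97 and 17.3% ± 1.42. Col4a1 and Col4a2 alone took 50.8% to 64.0% in wild type, against 50.9% to 61.3% under the knockout label. In contrast to the ratio, the summed level per kilobase of all 44 chains was 8912, 13479 and 11480.1 in wild type against 20003, 13925, 15125 and 17891 in the knockout-labelled libraries, with no overlap. The fibrillar sum was 1448 to 2119 and 2558 to 3332, and the basement membrane sum 6249 to 10192 and 9452 to 14372, the latter overlapping. As a share of all normalised counts, collagen chains held 0.455% to 0.618% in wild type, against 0.566% to 0.777% under the knockout label, ranges that overlap. These sums over chosen members are given as a description without a test, so the fibrillar calls beside the absence of basement membrane calls do not show that the families differ.

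**Figure D4:**
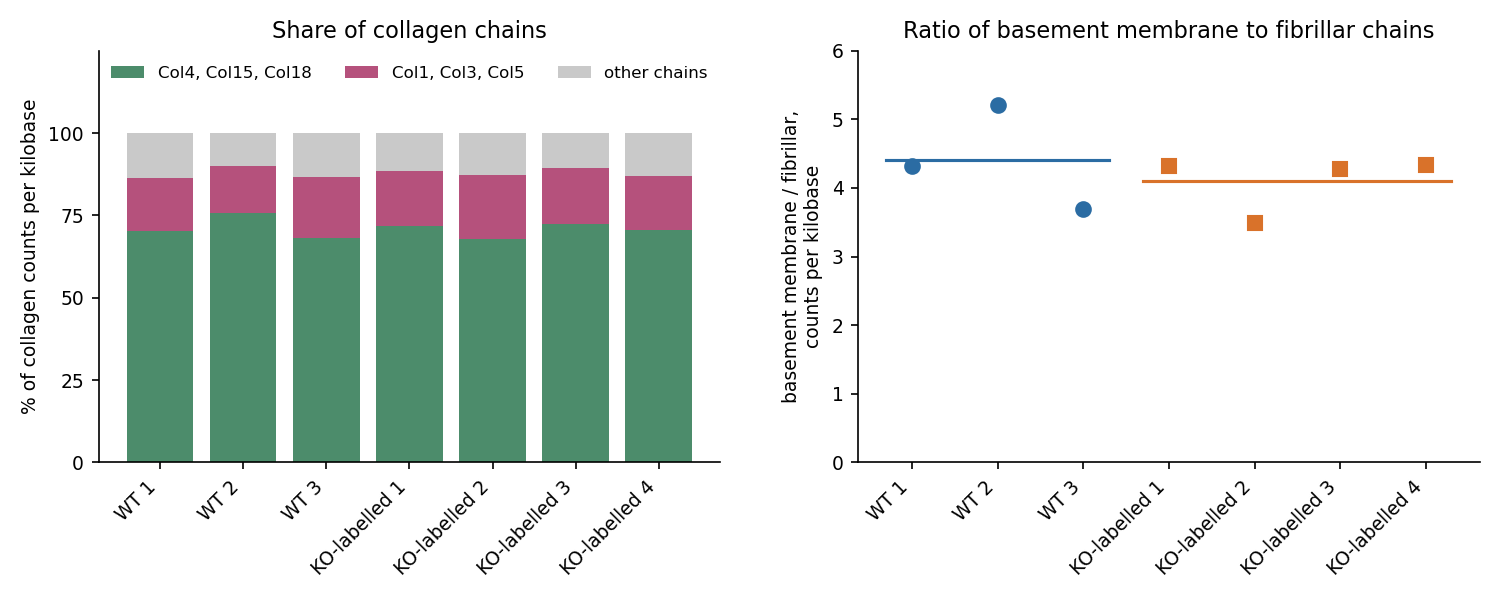
Left, share of the collagen counts per kilobase of transcript (%) held by the basement membrane, fibrillar and other chains in each library. Right, the ratio of basement membrane to fibrillar chains per library (points) with group means (lines), 4.40 in wild type (WT) and 4.10 in the knockout-labelled (KO-labelled) libraries, with overlapping ranges.

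Fibril-associated collagens do not build fibrils themselves but decorate them. Of 9 such chains 2 rose. Col14a1, a chain of dense connective tissue that is also a common fibroblast marker, was at 116, 113 and 128 normalised counts in wild type, then at 240.0, 262, 226 and 216 in the knockout-labelled libraries. Both groups were tight, with a wide gap between them, and the log2 fold change was 0.98 (SE 0.19, adjusted p = 0.0138). Its change was 0.76 to 1.04 over the 21 alternative settings, those that ended its call included. Col20a1, a less studied relative, was at 409.8, 271 and 412, then at 566, 557, 656 and 559 (a log2 change of 0.70, SE 0.18, adjusted p = 0.0276). Col12a1, a chain found in tendon and in the sheaths around muscle fibres, was at 248, 374 and 519.9 and at 490.2, 467, 546 and 693 (0.57, adjusted p = 0.103), the groups overlapping through wild-type library 3. Col16a1 had means of 316 and 379.8 (0.28), Col19a1 of 27.5 and 22.5 (-0.31), and Col22a1, a chain of the muscle-tendon junction, of 32.0 and 93.7 (1.43, SE 0.84), and none of these passed.

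Col28a1 encodes a chain described in peripheral nerve around glial cells. It was at 286, 307 and 327 normalised counts in wild type, then at 531, 415, 443 and 480.0 in the knockout-labelled libraries, without overlap (log2 fold change 0.60, SE 0.16, adjusted p = 0.0327). In the same libraries 4 of 8 Schwann cell markers rose (median 0.74), beside 5.98% of all genes tested and 16.0% of those with a mean of at least 1000. Summed, the 8 markers were at 15164 to 19616 normalised counts in wild type, against 26819 to 36428 under the knockout label. Among them were the myelin genes Mbp (4469 ± 709 and 8549 ± 1714) and Pmp22 (4546 ± 440.4 and 7535 ± 1093). No Schwann cell marker was listed at 0 in any library. Their part in the Col28a1 result was not tested. The remaining chains of this mixed class, Col7a1, which forms anchoring fibrils under epithelia, and Col26a1, had means of 51.4 and 22.4 (-1.28, SE 0.58, adjusted p = 0.143) and of 59.1 and 43.9 (-0.43).

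Markers of the cells that are known for fibrillar collagen were read as well. Beside the counts of this paragraph, 5.98% of all genes tested were called higher, 9.57% of those with a mean of at least 100 and 16.0% of those with at least 1000. The 11 fibroadipogenic progenitor markers had a median log2 fold change of 0.66, and 1 of them rose, a count near those shares. It was the actin-severing gelsolin gene Gsn, from 1935 ± 317 to 3655 ± 319 (log2 fold change 0.93, SE 0.14, adjusted p = 0.00479). The list's summed level overlapped, at 7362 to 10117 in wild type, against 9277 to 10061 under the knockout label, and the fibrillin gene Fbn1, its most abundant member, was at 5269 ± 1001 and 4566 ± 606 (adjusted p = 0.363). Much of that sum came from Fbn1. Lama2 had means of 434 and 423. The collagen-binding proteoglycan gene Dcn had means of 359.8 and 562 (0.68, SE 0.22, adjusted p = 0.0591), and the receptor gene Pdgfra, which defines these cells, 94.6 and 76.2 (-0.32). Lama2 and Pdgfra were chosen after their values were seen. Most of the 11 members had higher estimates than Fbn1, Lama2 and Pdgfra, as the median of 0.66 shows. No member was listed at 0 in any library. Of 7 tenocyte markers 6 were tested, with a median of 0.77, and 2 rose, Thbs4 (194 to 404) and Tnmd (25.6 to 60.1), with list sums of 566 to 794 and 886 to 1413 and only Kera at 0, in 1 library. Fmod had means of 200.02 and 278 and Comp of 246 and 277. Of 4 smooth muscle markers 4 rose (median 0.84), with sums of 28978 to 36869 and 48183 to 59169.6. Of 7 pericyte markers 0 rose (median -0.02), with sums of 11832 to 20568 and 14054 to 19204. Rgs5 had means of 9252 and 8766, Notch3 of 3887 and 4651 and Pdgfrb of 1312 and 1369. Summed satellite cell markers were at 1607 to 2037 and 2269.8 to 2678 (3 of 6 rose, Myod1 at 0 in 1 library). Those of muscle fibres were at 267 to 596 and 432 to 658 (0 of 7 rose). Macrophage markers summed to 213 to 273 and 263 to 418 (1 of 6 tested rose, 8 in all, 2 at 0 in a library). Adipocyte markers summed to 18.2 to 23.2 and 32.4 to 138 (1 of 2 tested rose, 6 in all, 4 at 0 in a library). The part of these cells in the collagen results was not tested. Read per unit of Cdh5, Col3a1 was at 0.0752, 0.0825 and 0.114 in wild type and at 0.153, 0.142, 0.127 and 0.124 in the knockout-labelled libraries, without overlap.

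Type VI collagen forms beaded microfibrils next to the basement membrane of muscle and vessels. Its main chains were at moderate levels, Col6a1 at 431, 522 and 594 and at 807, 563, 667 and 674 normalised counts, Col6a2 at 414, 561 and 675 and at 1011, 568, 610.5 and 745, and Col6a3 at 906, 1002 and 1151 and at 1246, 1113, 1370.1 and 1392. For each, wild-type library 1 was the lowest of the 7, and at least 1 knockout-labelled library lay below wild-type library 3. Log2 fold changes were close to each other, 0.39, 0.41 and 0.33, with adjusted p of 0.122, 0.198 and 0.122. Col6a6 had means of 17.2 and 20.5 (0.17). Col6a4 and Col6a5, the 2 chains under the filter, ran from 0 to 19.8 and from 0 to 28.3 normalised counts over the 7 libraries and were not tested.

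The short network collagens include Col8a1, a chain of vessel walls and eighth in mean level per kilobase in both groups. It was at 1659, 1812 and 2587 normalised counts in wild type, then at 2139, 3189, 1922 and 2275 in the knockout-labelled libraries, with overlap (0.24, SE 0.19, adjusted p = 0.387). Its partner Col8a2 had means of 24.9 and 23.6 (0.01). Transmembrane collagens sit in the plasma membrane with the collagenous part outside the cell. Col13a1, known from the neuromuscular junction, was at 121, 113 and 179, then at 344, 351, 133 and 340.2, and fell just short of the threshold (1.01, SE 0.32, adjusted p = 0.054). Knockout-labelled library 3 lay within the wild-type range, and Col13a1 was called without it (1.35) or without wild-type library 3 (1.21). Col25a1, which has a part in motor innervation of muscle, ran the other way, at 18.1, 30.1 and 24.1 and at 2.87, 12.9, 8.55 and 9.10, with no overlap but an adjusted p of 0.11. Means were 308 and 270.3 for Col23a1 (-0.24) and 121 and 101 for Col17a1 (-0.39), a chain of epithelial anchorage.

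Chains typical of cartilage were spread over the libraries in a way that crossed the groups. Col2a1, the main fibrillar chain of cartilage, was at 17.0, 349 and 2.06 normalised counts in wild type, then at 2009.7, 1.02, 537 and 2238 in the knockout-labelled libraries. Knockout-labelled libraries 1 and 4 were the highest, knockout-labelled library 3 and wild-type library 2 came next, and knockout-labelled library 2 was the lowest of all 7. The log2 fold change of 3.30 therefore had an SE of 1.97 and an adjusted p of 0.257. The type IX chain Col9a1, which coats type II fibrils, was highest in the same 4 libraries, at 6.66, 23.4 and 1.85 and at 111, 5.64, 49.9 and 106 (2.47, SE 0.92, adjusted p = 0.0875). Col11a1, a partner of Col2a1 in cartilage fibrils, was at 61.7, 97.1 and 106 and at 297, 107, 72.2 and 309 (0.92, adjusted p = 0.166). Without knockout-labelled library 2, Col2a1 (5.65) and Col9a1 (3.39) were called. The other such chains overlapped too. Means were 50.2 and 86.5 for Col9a2, 44.4 and 62.5 for Col9a3, 193 and 310.4 for Col11a2 and 10.8 and 38.2 for Col10a1, the type X chain of growing cartilage, whose value of 106 in knockout-labelled library 1 stood alone. The minor fibrillar chains Col24a1 and Col27a1 had means of 177 and 308 (0.62) and of 132 and 104 (-0.34).

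**Figure D5:**
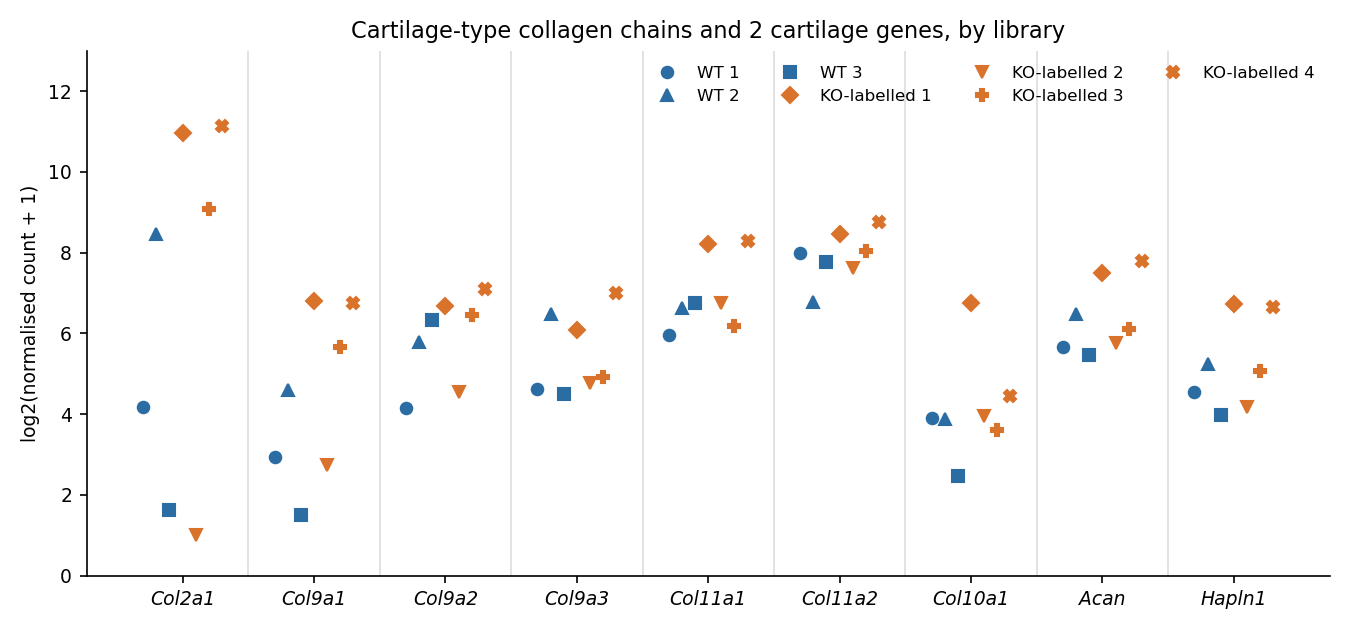
Log2 of the normalised count plus 1 of 7 cartilage-type collagen chains and of the cartilage genes Acan and Hapln1 in each wild-type (WT, blue) and knockout-labelled (KO-labelled, orange) library, 1 symbol per library. Knockout-labelled libraries 1 and 4 are at the top for Col2a1, Col9a1, Acan and Hapln1, and knockout-labelled library 2 is at the bottom for Col2a1.

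Cartilage genes outside the collagen family, a list chosen after the Col2a1 values were seen, gave the following values. Acan, the core protein of aggrecan, was at 49.6, 88.8 and 43.1 normalised counts in wild type, then at 179, 52.9, 67.5 and 221 in the knockout-labelled libraries. Hapln1, which links aggrecan to hyaluronan, was at 22.6, 36.9 and 14.8 and at 105, 17.0, 32.6 and 100.1. Knockout-labelled libraries 1 and 4 were the top for each, as for Col2a1. Of 12 such markers 6 were listed at 0 in at least 1 library, and Cnmd had means of 4.37 and 30.4. The list's sum was 1002 to 1525 and 1303 to 2658, most of it from Cytl1. Osteoblast markers, also chosen afterwards, summed to 2536 to 3212 and 2583 to 4507. Neither list supports a test, since both were chosen with values known. The part of cartilage RNA in these chains was not tested.

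Genes that make collagen were read from lists of 40 enzymes and carriers, of which 39 were tested, 7 rose and 0 fell. Of all genes tested 5.98% were called higher. The share was 9.57% at a mean of at least 100, where all 7 genes called lie, and 16.0% at a mean of at least 1000, where P4hb, Ppib and Serpinh1 lie. The count is read as a description and as nothing particular to these lists. Among those that modify prolines and lysines in the chains, 3 of 15 rose. P4ha1 and P4hb, the subunits of prolyl hydroxylase, went from 531 ± 65.6 to 789 ± 87.3 (log2 fold change 0.57, SE 0.15, adjusted p = 0.0325) and from 3617 ± 423 to 5161 ± 394 (0.52, SE 0.12, adjusted p = 0.0251). Ppib, a prolyl isomerase of the endoplasmic reticulum, rose from 1322 ± 298 to 2039 ± 175 (0.65, SE 0.16). P4hb also serves as a general disulphide isomerase. Of 11 genes of folding and export 3 rose, the collagen chaperone Serpinh1, known as HSP47 (2885 ± 464 to 4192 ± 578, log2 fold change 0.54, adjusted p = 0.0349), the endoplasmic reticulum ion channel Tmem38b (378 to 708, 0.87) and the coat protein Sec13 (456 to 646, 0.50), which serves export of many cargoes. Serpinh1 was at 2629, 3421 and 2605 and at 4529, 3354, 4267 and 4617, so knockout-labelled library 2 lay below wild-type library 2, as it did for Col4a1 and Col4a2. Of 7 tested genes of propeptide removal 0 changed, with Pcolce at 0.51 (adjusted p = 0.094) and Bmp1 at -0.45 (adjusted p = 0.11). Among 6 crosslinking genes 1 rose, the lysyl oxidase relative Loxl1, which was at 60.8, 46.0 and 101 and at 154, 171, 181 and 126 (1.24, SE 0.29, adjusted p = 0.0218). Pxdn, the peroxidase that joins type IV trimers, had means of 4491 and 5074 and did not pass. Medians of the 4 lists, in the order given, were 0.24, 0.18, 0.21 and 0.23.

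Of 10 collagen receptors 1 rose, the integrin beta 1 subunit Itgb1 (8749 ± 1903 to 12295 ± 595, log2 fold change 0.51, SE 0.15, adjusted p = 0.0415), which also serves receptors for other ligands. The list's median was -0.01. Among all genes tested 5.98% were called higher and 5.53% lower, and 16.0% higher among those with a mean of at least 1000. The counts of this list and the next are given as descriptions. Transforming growth factor beta signalling is a known inducer of fibrillar collagen genes, and of 14 of its genes 2 rose and 1 fell, with a median of 0.22. The rises were in the signal carrier Smad2 (468 to 746, 0.68, adjusted p = 0.0174) and the endothelial receptor Acvrl1 (3249.7 to 4351, 0.42, adjusted p = 0.0383). The gene that fell is not reported here by name.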

How the data were processed

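Libraries were built from total RNA with a Takara Clontech PicoMammalian v2 kit, per the labels' protocols. The authors deposited normalised counts, a signal scaled between libraries, in 1 table for each library. Tools named in the submitters' processing notes are DESeq2, DESeq, kallisto and featureCounts, without role or version, with GRCm39 as build; no source used here states how values were scaled. Values were not whole. With the smallest value repeated at least 20 times taken as 1 step, 24.4% to 48.6% of values up to 10 steps were whole to within 0.02 steps, so count tests and counting intervals were not used. Tests used log2(normalised count + 1), a scale that understates changes of low genes, for genes with a mean of at least 10, with limma 3.58.1 in R 4.3.3 (mean-variance trend, two-sided, Benjamini-Hochberg adjustment over all 16931 genes, threshold 0.05). Changes are knockout label minus wild type, with 95% intervals from that model.

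Titles gave each sample's group and replicate number. Same-numbered libraries of the groups did not deviate together, so the numbers were not treated as pairs. Levels were compared between chains per kilobase of the longest principal transcript in GENCODE M21 (GRCm38), matched by symbol for 44 of 44 chains. Exonic lengths for the length trend covered 96.4% of symbols. No source used here states whether counting kept strands apart, and Col4a1 and Col4a2 overlap at their starts.

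The members and gene lists were chosen with earlier results of these data known. Every tested chain is named. From each list of collagen-making, receptor and signalling genes up to 4 changed genes are named, or 2 where none changed. The exception is the 1 gene that fell in the transforming growth factor beta list, which is not named. For 4 marker lists the 3 most abundant genes are named, though only Mbp and Pmp22 for the Schwann cell list. Pxdn, Tnmd, Pdgfra, Lama2, the chondrocyte and osteoblast lists and their genes were chosen after their values were seen. Col21a1 was not analysed here. Some members of the lists are counted but not reported here by name. On simulated data with 200 changed genes among 16931, the test recovered 36.4% of changes of 1 and 68.5% of changes of 2 log2 units, with 5.8 false calls per run. The simulated noise was independent for each gene and library. In the data 1949 genes were called, and 43 without wild-type library 1. The simulation holds no such difference of a whole library, so its rates do not carry over to these calls.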

Additional observations from a re-analysis of the deposited data

Results flagged for a closer look

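Of 44 chains, 5 had a value in the 4 knockout-labelled libraries that stood far from the other 3, by a gap beyond Dixon's 95% critical value for 4 samples. Chance alone flags about 1 in 20 groups where values are normally distributed. The rule was applied to unlogged normalised counts, and its share over all genes was not computed. The count of flagged chains is thus a description. Col10a1 was high in knockout-labelled library 1, at 106 normalised counts. Col13a1 was low in library 3, at 133. Col20a1 was high in library 3, at 656, where the other 3 values lay close together. Col4a3 was high in library 2, at 113. Col6a5, under the filter on low values, was high in library 3, at 28.3.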

How the results depend on the processing

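Over 21 alternative settings, no chain was called lower. Of 875 values of single chains, 775 kept direction and side of the threshold, 48 lost a call with the same sign, 16 gained one, and 36 changed sign, among them Col1a1 with the receptor covariate, which also lost its call; the cause was not tested. Counts of genes changed, chains higher and fibrillar chains higher are given in that order. They were 1058, 3 and 2 with quantile normalization and 1847, 3 and 2 with equal totals. In limma without trend they were 17, 0 and 0, and with the receptor covariate 0, 0 and 0. With that covariate 3 chains and 749 genes had an unadjusted p under 0.05. At an adjusted p of 0.10, 3842 genes, 11 chains and 2 basement membrane chains were called. Class medians, basement membrane then fibrillar, were 0.17 and 0.48 with equal totals and 0.095 and 0.035 with the receptor covariate, a difference of -0.060.

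With the replicate block, which leaves knockout-labelled library 4 without a partner and so without weight, 119 genes, 0 chains and 0 fibrillar chains were called, while 3769 genes and 14 chains had an unadjusted p under 0.05. Same-numbered libraries correlated at -0.0806, -0.048 and -0.125 in their deviations, and differently numbered ones at -0.116 to 0.195. The numbers were therefore not treated as pairs, though so few libraries cannot exclude a pairing that the labels do not name.

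Leaving out 1 library at a time gave 43 (without wild-type library 1) to 1975 genes called, 0 to 11 chains, 0 to 4 fibrillar and 0 to 2 basement membrane chains, medians of 0.32 to 0.48 (basement membrane) and 0.52 to 0.79 (fibrillar), and differences of 0.20 to 0.44. The sign turned in at least 1 such fit for Col4a4 (-0.069 to 0.37), Col6a6 (-0.063 to 0.32), Col5a2 (-0.16 to 0.078) and Col8a2 (-0.27 to 0.51).

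Signs also turned for Col19a1 (0.32, quantile normalization), Col8a2 (-0.019, array weights, and -0.12, length trend removed), Col5a2 (0.019) and Col8a2 (-0.041) under the replicate block, and, with equal totals, Col4a4 (-0.10), Col5a3 (-0.00041), Col6a6 (-0.044) and Col8a2 (-0.20). With the receptor covariate they turned for Col11a1 (-0.34), Col12a1 (-0.27), Col15a1 (-0.21), Col1a1 (-0.17), Col22a1 (-0.49), Col26a1 (0.53), Col27a1 (0.24), Col4a4 (-0.12), Col4a5 (-0.23), Col4a6 (0.35), Col5a3 (-0.055), Col6a2 (-0.26), Col6a6 (-0.080), Col7a1 (0.13), Col8a1 (-0.27), Col8a2 (-1.11), Col9a2 (-1.07) and Col9a3 (-0.55). The number of libraries, the missing whole counts and low levels of the rarer chains limit these values.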
